A study of Mus musculus with 8 samples.

Results

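The genes described here are 10 of the 32285 genes counted: the VEGF receptors Flt1, Kdr and Flt4, the VEGF ligands Vegfa, Vegfc and Vegfd, the angiopoietin receptor Tek, and the endothelial junction genes Cldn5, Cdh5 and Pecam1. They were taken by symbol. Their levels were read by single-nucleus RNA sequencing in the petrous temporal bone (PTB), the part of the skull that encloses the inner ear, and in the paraflocculus/flocculus (PF/F), the cerebellar lobules that lie in a pocket of that bone. The study asked what loss of one copy of Tbx1, which encodes a T-box transcription factor, does to both tissues.

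Each tissue had 2 libraries of wild-type (WT) mice and 2 of heterozygous littermates (Tbx1+/-), at postnatal day 5.5 and on a C57/BL6 background. Every library was made from a pool of 5 mice. The study describes 2 batches of animals, and the replicate number was taken as the batch, which the labels do not state. The deletion of Tbx1 was in every cell and was not limited to vessels. The libraries, and not the nuclei, are the replicates, so 2 were compared with 2.

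VEGF ligands are secreted proteins that bind receptor tyrosine kinases on endothelial cells. VEGF-A signals mainly through the receptor encoded by Kdr, and the product of Flt1 binds VEGF-A tightly and limits that signal. VEGF-C and VEGF-D bind the Flt4 receptor, which is best known in lymphatic vessels. In brain vessels claudin-5, VE-cadherin and PECAM-1, from Cldn5, Cdh5 and Pecam1, join neighboring endothelial cells, and claudin-5 is a main tight-junction protein of the blood-brain barrier.

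The deposited annotation names 31076 PTB nuclei in 15 types and 48237 PF/F nuclei in 16 types, and leaves 32101 PTB and 9721 PF/F barcodes without a type. No PTB type is endothelial. In the PF/F, 183 nuclei are labelled endothelial, 15 to 65 in each library. To read vessels in both tissues by 1 rule, barcodes were marked as endothelial where they held at least 3 unique molecular identifiers (UMIs) of 12 reference endothelial genes, none of them among the 10, and where those made at least 1000 CPM of the barcode, CPM being the counts of a gene per 1000000 UMIs. This marked 3461 PTB barcodes, of which 3271 had no annotated type and 190 had one. It marked 421 PF/F barcodes, which took in 181 of the 183 annotated endothelial nuclei, 133 barcodes without a type and 107 nuclei of other types. The marked sets were not equally rich in vessel RNA. Flt1 had a UMI in 81.7% to 86.4% of marked PTB barcodes per library, but in 56.5% to 76.2% of marked PF/F barcodes. Levels below are CPM of the summed barcodes of a library. A level of such a sum cannot tell fewer cells of a type from less RNA per cell, and levels were compared within a gene only, since nuclear counts also depend on gene length.

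The PTB libraries held 66835028 to 88677309 UMIs and the PF/F libraries 44713226 to 60627200. Between 0.313% and 0.652% of the smaller library's barcodes recurred in another library. In annotated PTB nuclei Tbx1 was at 38.9 and 39.4 CPM in the WT libraries and at 26.3 and 35.7 CPM in the Tbx1+/- libraries, so each heterozygous library was below both WT libraries. In barcodes without a type Tbx1 was at 39.7 CPM in WT and 29.1 CPM in Tbx1+/- in replicate 1, and at 53.0 and 45.1 CPM in replicate 2. It was lower in Tbx1+/- within each replicate number, although the genotypes overlapped. In annotated PF/F nuclei Tbx1 had only 4 to 13 UMIs per library and could not be used to check the labels. Marked barcodes made up 5.18% to 5.84% of PTB barcodes, but only 0.300% of those of PF/F WT 1 and 0.591% to 1.15% in the other PF/F libraries. PF/F WT 1 also had the fewest marked barcodes, 46, so its values are the least precise.

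Positions are those of GRCm38. Cldn5 spans 18776847 to 18778262 on chromosome 16, on the plus strand, 186175 bp from Tbx1. Flt1 spans 147561604 to 147726011 and Kdr 75932827 to 75978458, both on the minus strand of chromosome 5. Flt4 spans 49609263 to 49652739 (plus strand) and Pecam1 106654217 to 106750628 (minus strand) on chromosome 11, and Vegfc 54077606 to 54187096 and Cdh5 104101625 to 104144511, both on the plus strand of chromosome 8. Vegfa spans 46016993 to 46032369 on chromosome 17 (minus strand), Tek 94739289 to 94874976 on chromosome 4 and Vegfd 164373378 to 164402650 on chromosome X, both on the plus strand. The 3 genes called higher in the PF/F than in the PTB are shown by the 250 bases before and 50 bases after their RefSeq start, on GRCm38.p6 and 5′ to 3′ of the gene. Capitals mark the ETS letters AGGAAG or CGGAAG on either strand, and the TCF/LEF letters CTTTGA and the hypoxia letters ACGTG were searched in the same way.
Cldn5 (chr16:18776597-18776896, plus strand): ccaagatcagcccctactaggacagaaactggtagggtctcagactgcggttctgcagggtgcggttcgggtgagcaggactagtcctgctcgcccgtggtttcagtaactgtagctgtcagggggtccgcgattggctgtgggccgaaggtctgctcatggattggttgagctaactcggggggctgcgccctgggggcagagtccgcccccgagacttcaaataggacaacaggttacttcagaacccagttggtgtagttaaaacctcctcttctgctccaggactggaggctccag
Flt1 (chr5:147725962-147726261, minus strand): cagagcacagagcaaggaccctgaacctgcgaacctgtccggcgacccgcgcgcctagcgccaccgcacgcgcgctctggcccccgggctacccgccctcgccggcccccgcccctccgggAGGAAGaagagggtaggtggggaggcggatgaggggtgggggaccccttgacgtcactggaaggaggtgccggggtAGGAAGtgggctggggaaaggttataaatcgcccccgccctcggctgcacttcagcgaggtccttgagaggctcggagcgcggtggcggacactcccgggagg
Kdr (chr5:75978406-75978705, minus strand): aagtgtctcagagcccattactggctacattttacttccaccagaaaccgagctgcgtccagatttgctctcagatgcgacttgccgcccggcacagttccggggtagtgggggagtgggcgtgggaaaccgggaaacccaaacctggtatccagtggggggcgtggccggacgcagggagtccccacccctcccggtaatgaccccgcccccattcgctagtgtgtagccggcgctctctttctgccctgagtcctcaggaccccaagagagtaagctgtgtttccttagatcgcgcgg
The Flt1 window held the ETS letters in 2 places, and the Cldn5 and Kdr windows held none of the 3 sets of letters. ETS letters were in 46.5% of the 32851 windows of all genes, TCF/LEF letters in 16.0% and hypoxia letters in 19.6%. RefSeq windows were matched for 8 of the 10 genes, and those of Cdh5 and Pecam1 were not.

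The receptors were concentrated in the marked barcodes of both tissues. In the PTB, marked barcodes gave 72.8% of all Flt1 UMIs, 66.4% of Flt4 UMIs, 66.3% of Tek UMIs and 47.7% of Kdr UMIs, while they held 5.90% of all UMIs. In the PF/F the shares were 85.1% for Flt1, 66.2% for Kdr, 54.1% for Flt4 and 44.6% for Tek, against 1.26% of all UMIs. The junction genes had shares of 46.7% to 65.2% in the PTB and 41.4% to 61.2% in the PF/F. The ligands had smaller shares. Vegfa had 4.27% of its UMIs in marked PTB barcodes and 0.558% in marked PF/F barcodes, both below the share of all UMIs. Vegfc was above that share in the PTB, at 12.6%, and below it in the PF/F, at 0.943%. Vegfd was above it in both, at 10.6% and 2.20%.

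The annotated types were clustered on these same nuclei, so their levels are given as a description. Of the nuclei labelled endothelial in the PF/F, Flt1 had a UMI in 91.7% to 100% per library and Cldn5 in 89.6% to 95.4%. The shares were 60.0% to 84.6% for Kdr, 53.3% to 78.2% for Tek, 53.3% to 73.8% for Pecam1 and 53.3% to 61.5% for Cdh5. Flt4 had a UMI in only 6.67% to 21.8% of these nuclei, and Vegfa in 0% to 6.67%. In granule neuron progenitors (GNPs), which should lack both, Flt1 had a UMI in 0.423% to 1.59% of nuclei and Cldn5 in 4.19% to 13.3%. Median depth was 2486 to 3169 UMIs per endothelial nucleus and 2294 to 2966 UMIs per GNP across libraries. Thinned to 1500 UMIs per nucleus, which left out 0 endothelial nuclei and 28 to 101 GNPs per library, the Cldn5 shares were 80.0% to 86.7% of endothelial nuclei and 2.58% to 7.39% of GNPs. The mean Cldn5 level over the 4 libraries in PF/F types other than endothelial did not exceed 37.9 CPM, that of pericytes, whose libraries ran from 14.8 to 86.1 CPM. Among PTB types this mean did not exceed 14.9 CPM, that of CP5, 1 of 6 chondrocyte progenitor (CP) types.

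**Figure D1:**
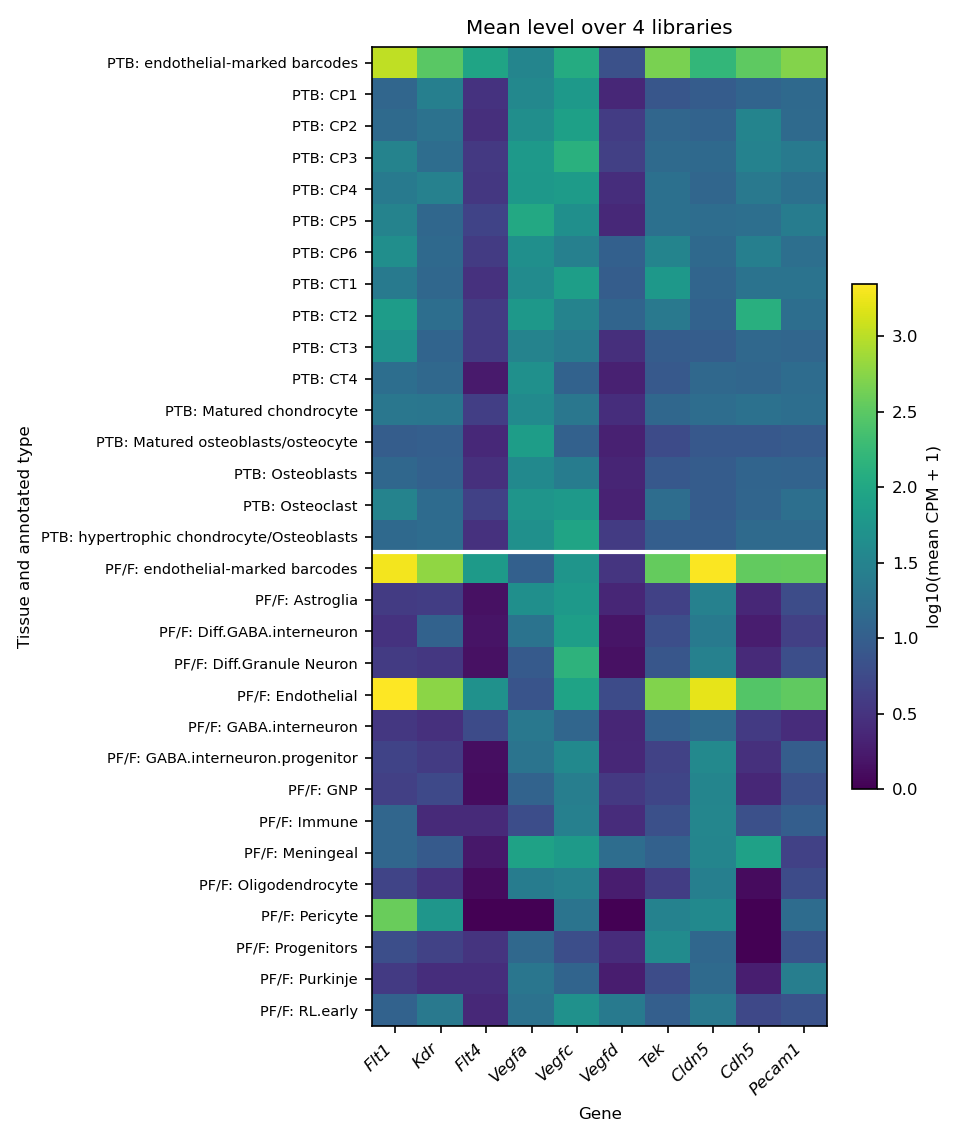
Mean level of the 10 genes over 4 libraries, as log10(mean CPM + 1), in the marked barcodes and in annotated types of the PTB (above the white line) and the PF/F. Flt1, Kdr, Flt4, Tek, Cldn5, Cdh5 and Pecam1 are highest in the endothelial rows, while Vegfa is highest in PTB CP5 (104 CPM).

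Flt1, the VEGF-A receptor that limits signaling, was next highest in PF/F pericytes, the contractile cells that wrap capillaries, at 375 ± 117 CPM (SD, n = 4), over only 74 nuclei. This lay below the 1912 to 2546 CPM of endothelial nuclei and above every other PF/F type, of which none exceeded a mean of 11.8 CPM. In the PTB the highest annotated levels were 69.1 ± 17.0 CPM in CT2, a connective tissue (CT) type, and 49.2 ± 12.1 CPM in CT3, whose libraries overlapped. Kdr, the main VEGF-A signaling receptor, was at 587 ± 118 CPM in PF/F endothelial nuclei. Among PTB types it led in CP4 (28.6 ± 3.93 CPM) and CP1 (27.0 ± 3.86 CPM), which overlapped. In PF/F it stood at 21.6 ± 8.92 CPM in early rhombic lip nuclei (RL.early), and no other type but pericytes lay between these and endothelial nuclei. Flt4 was at 47.5 ± 26.6 CPM in endothelial nuclei and at most 4.74 CPM in the other 30 types.

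Tek, the receptor of the angiopoietins, was at 514 ± 259 CPM in PF/F endothelial nuclei, with libraries at 199, 546, 831 and 481 CPM. The library with the lowest value, WT 1, had 15 of these nuclei. Outside endothelium it was highest in PTB CT1, at 60.0 ± 19.3 CPM, and in PF/F progenitors, at 39.7 ± 7.23 CPM. Without the 8% of barcodes with the most UMIs in each library, progenitors were at 85.6 CPM and CT1 at 59.2 CPM, so the order of these types turned. The progenitor type had only 152 nuclei before this cut, 20 to 72 per library. Kdr, Vegfc and Cldn5 rose there too, to 2.09, 3.05 and 2.77 times their level.

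Cdh5 and Pecam1 were also read outside endothelial nuclei. Cdh5, which encodes VE-cadherin, was at 126 ± 11.8 CPM in PTB CT2 nuclei, with libraries at 110 to 139 CPM, and no other PTB type exceeded a mean of 31.1 CPM. It was at 80.3 ± 18.7 CPM in PF/F meningeal nuclei, below the 284 ± 32.3 CPM of endothelial nuclei and above the 5.61 CPM of the next type. CT2 and meningeal nuclei did not share this with Cldn5, which was at or below 37.9 CPM in every type but endothelial. Pecam1, an adhesion molecule of endothelium, platelets and leukocytes, was at 26.1 ± 2.18 CPM in Purkinje nuclei, with libraries at 23.1 to 28.3 CPM, against 341 ± 110 CPM in endothelial nuclei. In the PTB it was at 24.3 ± 7.68 CPM in CP5, which overlapped with the next type.

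Among the ligands, Vegfa was highest in PTB CP5, at 104 ± 3.13 CPM, with libraries at 100, 105, 106 and 107 CPM. The next PTB type, matured osteoblasts/osteocytes, was at 70.9 ± 8.50 CPM and its highest library, 81.5 CPM, lay below CP5. PTB CP3, CT2 and CP4 followed at 62.2, 59.7 and 59.0 CPM and overlapped with each other. In the PF/F, Vegfa was at 84.6 ± 4.52 CPM in meningeal nuclei and at 44.6 ± 5.21 CPM in astroglia, and the other types lay at or below 24.6 CPM.

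Vegfc was at 142 ± 24.0 CPM in differentiated granule neurons (Diff.Granule Neuron) of the PF/F, with libraries at 124, 119, 159 and 167 CPM, above the 85.4 ± 19.3 CPM of endothelial nuclei. In the PTB it led in CP3, at 132 ± 14.1 CPM, followed by hypertrophic chondrocytes/osteoblasts at 87.5 ± 2.46 CPM. Vegfd reached 22.0 ± 6.51 CPM in RL.early nuclei and 14.9 ± 7.21 CPM in meningeal nuclei, and these types overlapped.

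**Figure D2:**
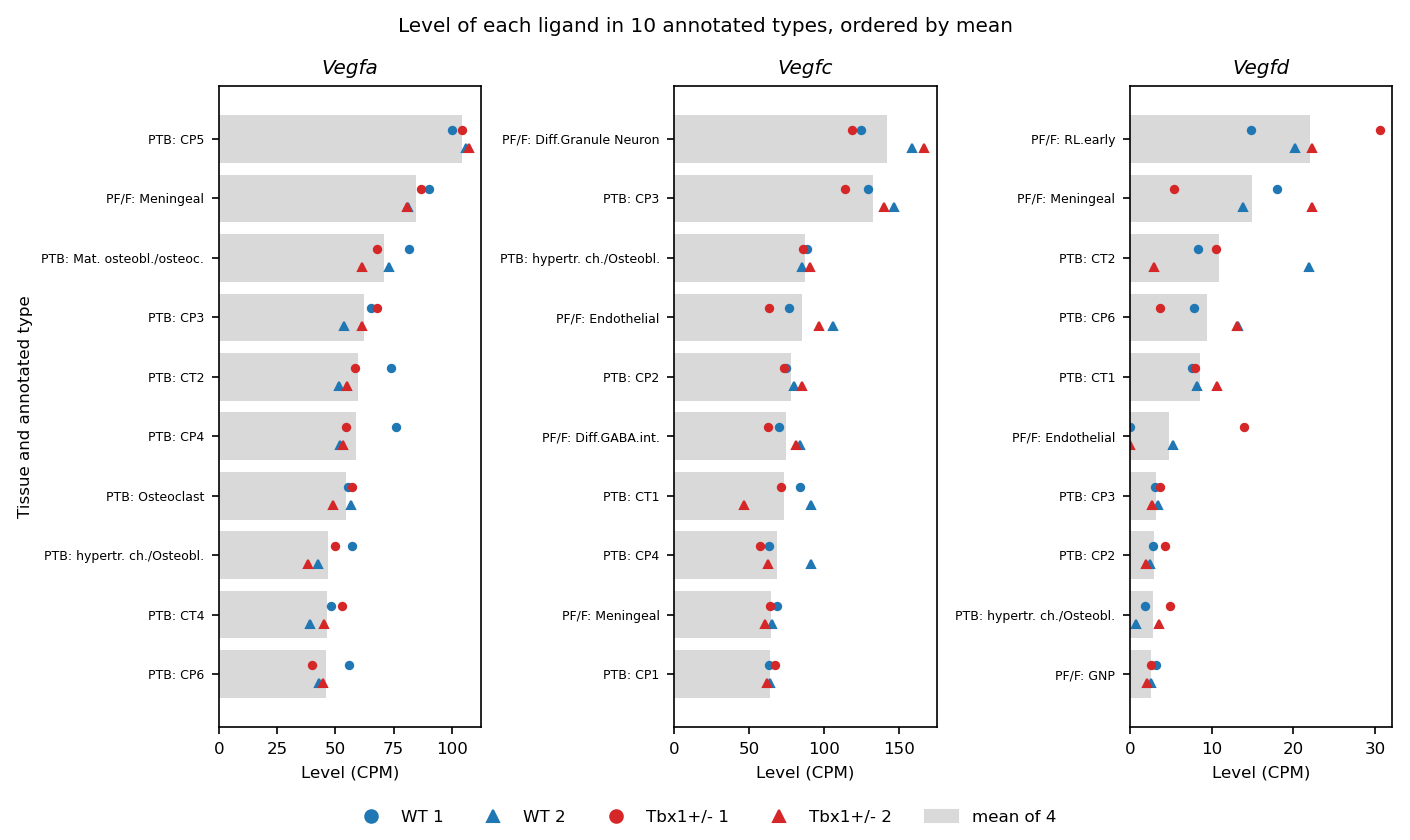
Level in CPM (horizontal axis, from 0) of Vegfa, Vegfc and Vegfd in 10 annotated types each, ordered by their mean; bars show the mean of 4 libraries and points the libraries. Vegfa is highest in PTB CP5 with all 4 libraries between 100 and 107 CPM, Vegfc is between 119 and 167 CPM in differentiated granule neurons, and Vegfd is highest in RL.early nuclei.

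The marked barcodes of the 2 tissues were compared, 4 libraries each, over all genes. Frozen bone was pulverized before its nuclei were taken and the PF/F was not, so tissue and preparation cannot be told apart. Of 13919 genes tested with edgeR's quasi-likelihood test, 34.6% differed at an adjusted p under 0.05 and more than 1.5-fold, 18% higher and 16.6% lower in the PF/F. Of the 10 genes, 9 were tested, and 3 were called higher and 2 lower in the PF/F, with a median log2 difference of -0.37 against -0.02 over all genes. The tissues did not overlap in 8 of the 10 genes, against 36.9% of the genes with at least 20 UMIs.

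Cldn5 differed most. It was at 303, 110, 121 and 119 CPM in PTB WT 1, Tbx1+/- 1, WT 2 and Tbx1+/- 2, and at 2457, 2536, 1478 and 1874 CPM in the PF/F libraries in the same order. The lowest PF/F library was above the highest PTB library, and the ratio of the means was 12.8. In edgeR the log2 difference was 3.70 (SE 0.34, adjusted p = 1.39e-06), and it was 4.18 without PTB WT 1.

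The VEGF-A receptors were also called higher in the PF/F, but this call did not hold without the barcodes richest in UMIs. Flt1 was at 1010, 1029, 1134 and 1115 CPM in the PTB libraries and at 1815, 1777, 2029 and 2082 CPM in the PF/F libraries, a log2 difference of 0.82 (SE 0.16, adjusted p = 0.000867, edgeR). Kdr was at 332, 285, 300 and 307 CPM and at 495, 706, 592 and 687 CPM, a log2 difference of 0.99 (SE 0.16, adjusted p = 0.000185, edgeR). When libraries were scaled to the 12 reference genes instead of all genes, the median over all genes moved from -0.02 to -0.42, Flt1 was at 0.47 (adjusted p = 0.0179, edgeR), under the fold threshold, and Kdr stayed called at 0.63. Without the 8% of barcodes with the most UMIs in each library, a setting chosen after seeing the data, neither passed. This setting left 339 of 421 PF/F and 3090 of 3461 PTB marked barcodes. It took out 59.40% of the UMIs of marked PF/F barcodes, but 31.01% of those of marked PTB barcodes. The loss of UMIs was thus unequal between the tissues, and its part in the lost calls was not tested. Flt1 was then at 1342 to 2087 CPM in the PF/F and 1143 to 1416 CPM in the PTB (log2 difference 0.37, SE 0.21, adjusted p = 0.2, edgeR), with overlap. Kdr was at 329 to 581 CPM and 334 to 368 CPM (0.48, SE 0.19, adjusted p = 0.0628, edgeR), also with overlap. The means of annotated PF/F endothelial nuclei were then 2426 CPM for Flt1 and 611 CPM for Kdr, against 2210 and 587 CPM with all these nuclei. In the same setting Cldn5 stayed called higher, at 3.04, and Vegfa, with 4 UMIs left in the PF/F, and Vegfc stayed called lower, at -2.79 and -0.87. Vegfc then overlapped, at 24.4 to 84.1 CPM in the PF/F and 81.2 to 130 CPM in the PTB.

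Both ligands that were tested were lower in marked PF/F barcodes than in marked PTB barcodes. Vegfa was at 34.8, 31.8, 35.3 and 29.1 CPM in the PTB libraries and at 17.8, 7.24, 6.68 and 6.50 CPM in the PF/F libraries, a log2 difference of -2.06 (SE 0.26, adjusted p = 3.01e-05, edgeR). The PF/F values rest on 20 UMIs in all. Vegfc was at 114, 121, 118 and 99.6 CPM in the PTB and at 31.2, 50.7, 61.2 and 78.0 CPM in the PF/F, with no overlap and a log2 difference of -0.93 (SE 0.19, adjusted p = 0.0015, edgeR). Vegfd had 7 UMIs in the PF/F and was not tested.

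Markers of other tissues moved with these differences. The meningeal list was at 1983 to 3663 CPM in marked PTB barcodes and at 34.7 to 148 CPM in marked PF/F barcodes, and the osteoblast list at 1668 to 1896 and 32.6 to 62.3 CPM. The brain endothelial list went the other way, at 1676 to 2260 CPM in PF/F and 291 to 351 CPM in PTB, and the sinusoidal and fenestrated endothelial list was at 178 to 280 CPM in PF/F and 1041 to 1215 CPM in PTB. Other lists were also higher in the PF/F. The pericyte list was at 706 to 959 CPM against 388 to 461 CPM in the PTB, and the neuron list at 473 to 890 against 94.0 to 127 CPM. The erythroid list was at 571 CPM in PF/F WT 1 and at 5087 to 7788 CPM in the other PF/F libraries, against 656 to 1631 CPM in the PTB. Their part in the differences of the 10 genes was not tested.

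The other 4 genes did not pass. Tek was at 241 to 429 CPM in PF/F and 449 to 485 CPM in PTB (log2 difference -0.37, SE 0.17, adjusted p = 0.102, edgeR), without overlap. Flt4 was at 61.8 to 70.6 CPM and 81.0 to 96.4 CPM (-0.42, SE 0.14, adjusted p = 0.0310, edgeR), under the fold threshold. Pecam1 was at 276 to 421 CPM and 466 to 601 CPM (-0.58, SE 0.17, adjusted p = 0.0157, edgeR), just under it. Cdh5 overlapped between the tissues, at 324 to 392 CPM in PF/F and 283 to 396 CPM in PTB (0.07, SE 0.14, adjusted p = 0.722, edgeR). Scaled to the reference genes, Tek, Flt4 and Pecam1 passed, at -0.75, -0.82 and -0.95, and Cdh5 was at -0.28. Without the barcodes with the most UMIs, Flt4 (-1.05, adjusted p = 0.00221, edgeR) and Pecam1 (-1.10, adjusted p = 0.00314, edgeR) passed as lower in the PF/F, while Tek (-0.61, adjusted p = 0.0884, edgeR) did not, and Cdh5 (-0.51, adjusted p = 0.0373, edgeR) was under the 1.5-fold limit. Their ranges were then 12.2 to 60.1 CPM in the PF/F and 97.7 to 117 CPM in the PTB for Flt4, and 97.6 to 369 and 558 to 671 CPM for Pecam1. The PF/F values then rested on 57 UMIs of Flt4 and 341 UMIs of Pecam1 in all. The lowest value of both was that of PF/F WT 1, where 34 marked barcodes were left.

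**Figure D3:**
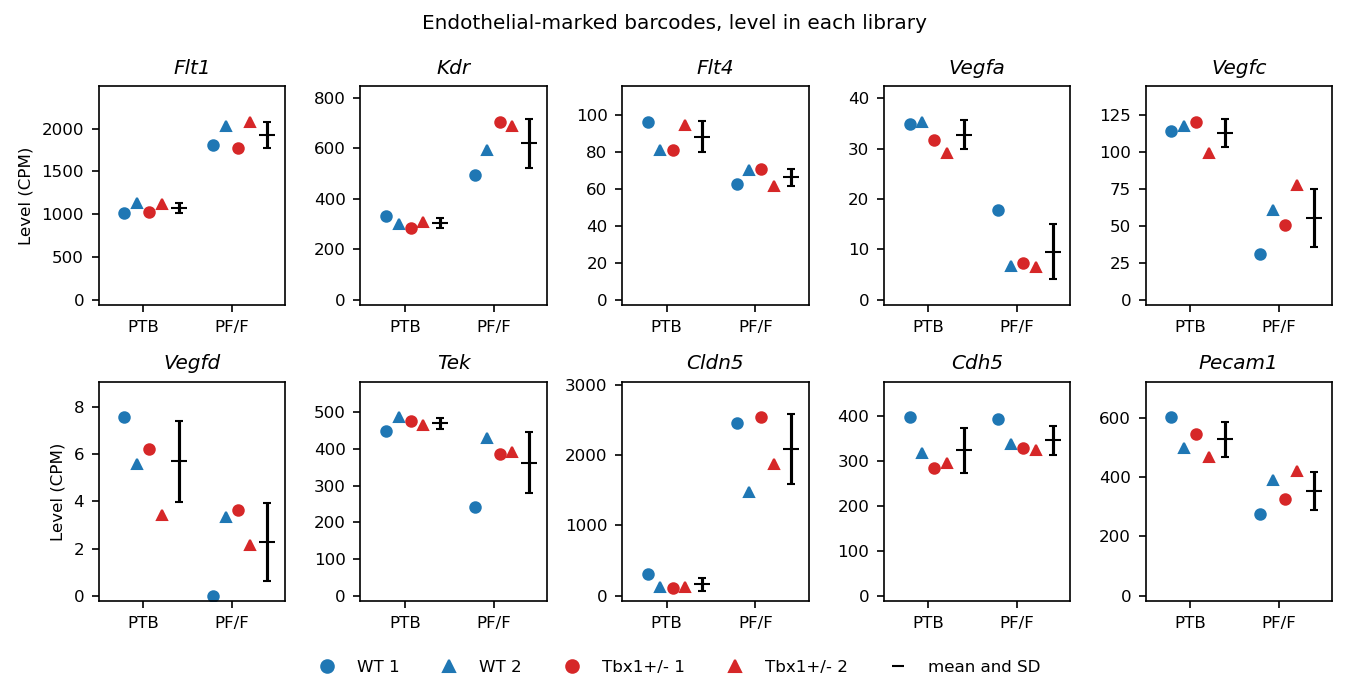
Level in CPM (vertical axis, from 0) of each gene in the endothelial-marked barcodes of each library, with the mean and SD of the 4 libraries of a tissue. Cldn5 is 110 to 303 CPM in the PTB and 1478 to 2536 CPM in the PF/F, Flt1 and Kdr are higher in the PF/F without overlap, Vegfa and Vegfc are lower without overlap, and Cdh5 overlaps.

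A list of 54 further genes of VEGF signaling and endothelial junctions was read in the same fit. Without 6 genes that chose the barcodes, 48 were left, of which 46 were tested, 12 were called higher and 10 lower in the PF/F, and 24 were not called. These were 26.1% and 21.7% of those tested, beside 18% and 16.6% of all genes, and the median log2 difference was 0.17 against -0.02. With the 6 genes, 15 were higher and 10 lower of 52 tested, and 11 and 10 of 51 without the barcodes with the most UMIs, where the median turned to -0.07. Of the junction and membrane genes, 5 of 15 were higher, among them Mfsd2a (log2 difference 4.85), a lipid transporter of the blood-brain barrier, and Ocln (2.15), which encodes the tight-junction protein occludin. The other 3 were Icam2 (1.40), an adhesion molecule, the efflux transporter Abcb1a (1.33) and Tjp1 (0.88), which encodes the junction scaffold ZO-1. Of the same genes 3 were lower, and Plvap, which forms the diaphragms of fenestrated vessels, was at -4.29, the sialomucin Emcn at -2.44 and the junctional adhesion molecule Jam3 at -0.91. Mfsd2a and Abcb1a are also in the brain endothelial list, and Plvap and Emcn in the sinusoidal and fenestrated list. Slco1a4, another gene of the brain endothelial list, was not called, at -0.13 (SE 0.36). Of the other ligands, Apln (1.82), an apelin receptor ligand, and Dll4 (1.10), a Notch ligand, were higher, and Pgf, a VEGF-family ligand of Flt1, was lower at -3.81. Of 7 other receptors and co-receptors 3 were lower, which were the semaphorin and VEGF co-receptors Nrp2 (-2.48) and Nrp1 (-0.83) and the semaphorin receptor Plxnd1 (-0.65). Of 12 transcription factors 5 were higher, which were Foxq1 (3.75), Foxf2 (2.54), Sox7 (1.59), the Wnt effector Lef1 (0.88) and the ETS factor Erg (0.80), and Hif1a, an oxygen-regulated factor, was at -0.90. Of 6 genes of VEGF processing and oxygen sensing 2 were lower, the prolyl hydroxylase Egln3 at -2.11 and Adamts3, a protease that processes VEGF-C, at -1.37.

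**Figure D4:**
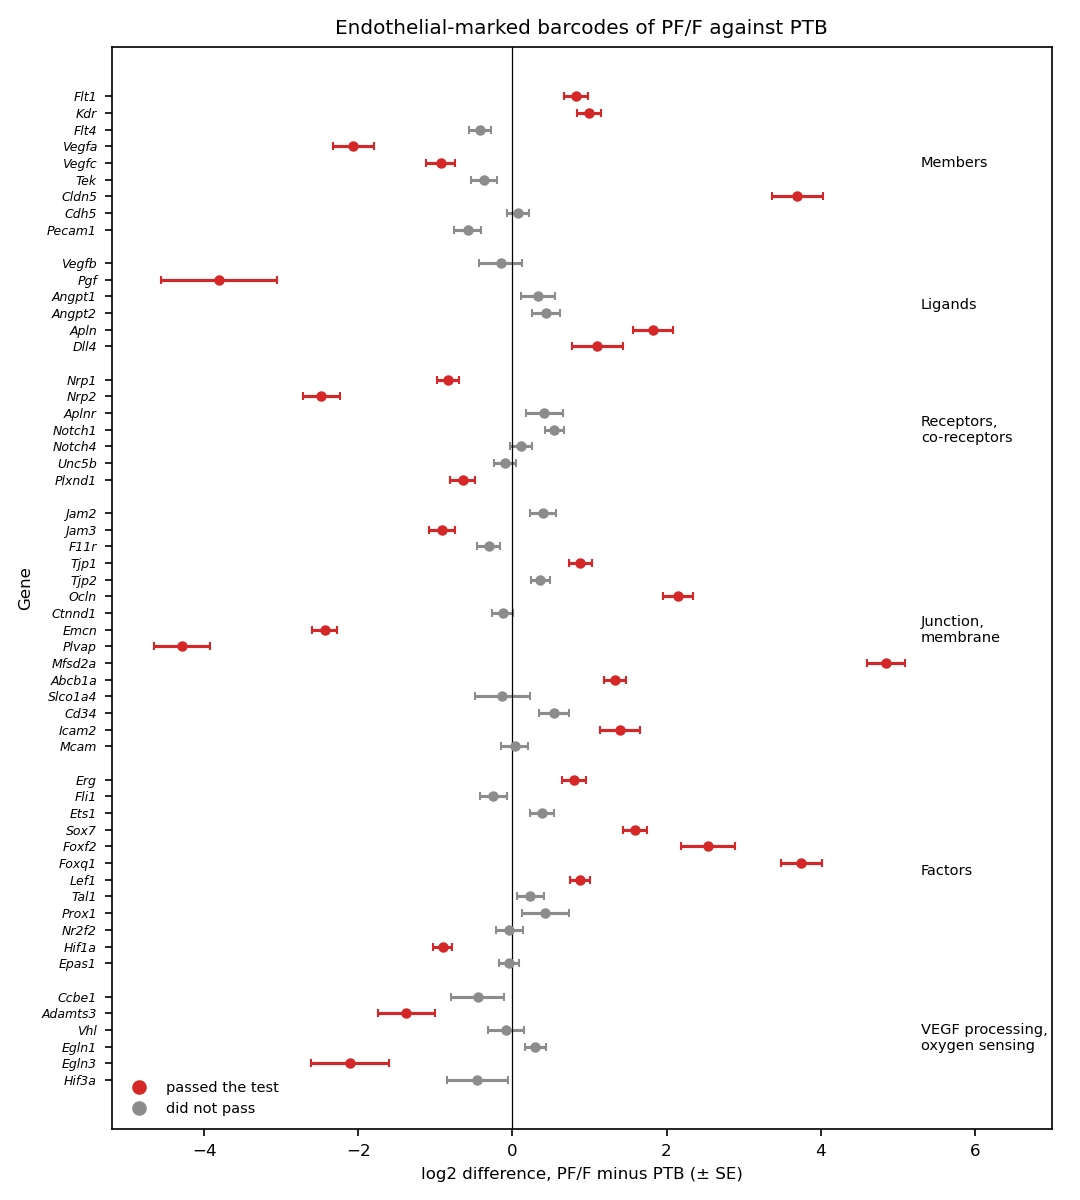
Log2 difference of PF/F minus PTB (horizontal axis) with its SE for 9 of the 10 genes and the genes of the pathway list, in the endothelial-marked barcodes, edgeR, 4 libraries against 4. Red points passed the test: Cldn5 lies at 3.70 and Vegfa at -2.06, and Mfsd2a at 4.85 and Plvap at -4.29 are the most extreme of the genes shown.

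Marked PTB barcodes were also divided by the vessel marker lists of which they held at least 2 UMIs, and the lists overlap in some barcodes. The arterial list took 220 barcodes, the brain endothelial list 762, the sinusoidal and fenestrated list 2548, the lymphatic list 180, and 631 held none. Vegfc was at 408 ± 80.7 CPM in arterial-list barcodes, with libraries at 319 to 482 CPM, against 120, 97.7 and 101 CPM in the brain, sinusoidal and lymphatic lists. Flt4 went the other way, at 26.3 ± 2.82 CPM in arterial-list barcodes and 95.5 ± 10.6 CPM in sinusoidal-list barcodes, and the libraries of these lists did not overlap. In brain-list barcodes Flt4 was at 48.5 ± 8.06 CPM, and in lymphatic-list barcodes, where it varied most, at 85.6 ± 40.0 CPM, which overlapped with the sinusoidal list. Flt1 was at 1123 ± 60.3 CPM in sinusoidal-list and 1097 ± 53.6 CPM in brain-list barcodes, and lower in arterial-list (820 ± 83.8 CPM) and lymphatic-list barcodes (703 ± 86.0 CPM). It was as low in the 631 barcodes of no list, at 713 ± 74.1 CPM. Depth was not matched, as the 180 lymphatic-list barcodes held 1817086 UMIs and the 631 of no list 1909670. In the PF/F, Flt4 was at 79.8 ± 49.4 CPM in 29 arterial-list barcodes and at 86.4 ± 10.7 CPM in sinusoidal-list barcodes, with overlap. Of the 421 marked PF/F barcodes, 144 held none of the lists, with Cldn5 at 345 ± 87.4 CPM and Tek at 67.7 ± 22.4 CPM. In brain-list PF/F barcodes these were at 2520 ± 694 and 425 ± 77.9 CPM. These are descriptions of barcodes chosen by marker genes.

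**Figure D5:**
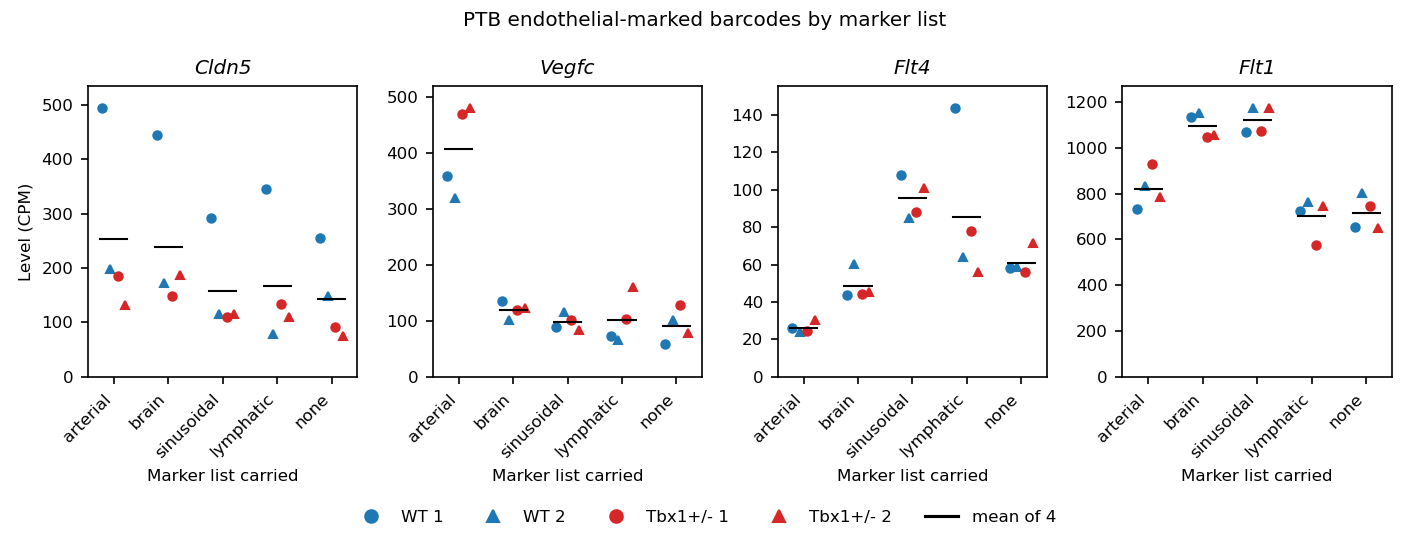
Level in CPM (vertical axis, from 0) of Cldn5, Vegfc, Flt4 and Flt1 in PTB endothelial-marked barcodes that held at least 2 UMIs of a vessel marker list; points are libraries and lines means of 4. Vegfc is highest in arterial-list barcodes (319 to 482 CPM), Flt4 is lowest there (24.2 to 30.3 CPM), and Cldn5 is highest in PTB WT 1 in every list.

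The comparison of genotypes called none of the 10 genes in any of the 6 sums (annotated nuclei, barcodes without a type and marked barcodes, in each tissue), where 0% of all genes were called. At an unadjusted p under 0.05 edgeR had 0 of the 10 in each sum, and DESeq2, which called none of the 10 either, had 1 (Cldn5 in marked PTB barcodes). In the 31 annotated types none of the 192 tests of the 10 genes was called, and 0.000282% of tests over all genes were. At an unadjusted p under 0.05 there were 11 of the 192, or 5.73%, against 1.58% over all genes, in 6 types, and the lowest adjusted p was 0.999 (edgeR), while DESeq2 called none. By gene they were 4 tests of Flt1, 3 of Pecam1 and 1 each of Tek, Cldn5, Cdh5 and Vegfd. Over all types tested, Flt1 was higher in Tbx1+/- in 17 and lower in 4, at log2 -1.57 to 1.44. The 11 tests included 3 in CP5, which were Flt1 (log2 1.04), Tek (1.06) and Pecam1 (0.73). The 12 reference endothelial genes moved with them in CP5 without overlap, at 105 and 76.1 CPM in WT and 135 and 146 CPM in Tbx1+/-, and their part in these values was not tested. In simulated data of this design, where 200 genes differed by a log2 of 1, edgeR called 29% of them in marked PTB barcodes and 9% in marked PF/F barcodes. The simulation gave every gene the same dispersion, set in advance, without a batch effect, and changed no genes of low counts. These shares are therefore not the power for any single gene.

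In marked PTB barcodes Cldn5 was lower in both Tbx1+/- libraries, at 110 and 119 CPM, than in WT, at 303 and 121 CPM. The log2 difference was -0.93 (SE 0.40, unadjusted p = 0.0569, adjusted p = 1.00, edgeR). It rested on PTB WT 1: without it the log2 difference was -0.08. That library also had the highest arterial list, 111 CPM against 41.5 to 68.3 CPM, and the highest erythroid list, 1631 CPM against 656 to 1020 CPM, and their part was not tested. It was above the other libraries in each marker list subset, for example at 445 CPM against 149 to 187 CPM in brain-list barcodes. Without PTB WT 2, the call of Cldn5 passed at -1.45 (adjusted p = 0.00498, edgeR).

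Cdh5 was lower in Tbx1+/- in both tissues, at 283 and 296 CPM against 396 and 317 CPM in WT in the PTB, and at 329 and 324 CPM against 392 and 336 CPM in the PF/F. Its log2 differences were -0.32 (SE 0.16) and -0.12 (SE 0.29) and were not called. In the PTB the difference was -0.12 without WT 1 and -0.49 without WT 2. Without the 8% of barcodes with the most UMIs the PF/F genotypes overlapped, at 214 and 257 CPM in Tbx1+/- against 220 and 323 CPM in WT. The genotypes did not overlap for 3 of 10 genes in the PTB (Cldn5, Cdh5 and Vegfa), against 25.3% of all genes with at least 20 UMIs, and for 2 of 9 genes in the PF/F (Kdr and Cdh5), against 28.5%. An interaction of genotype and tissue was called for 0 of 15199 genes, or 0%, at 438 genes with an unadjusted p under 0.05. In simulated data with a log2 interaction of 1 in 200 genes, edgeR called 0% of them. In that simulation the test could hardly call an interaction of that size. Its dispersion was also set in advance and it had no batch effect, so the share is not the power in these data. No conclusion is drawn from the count of interactions. For Cldn5 the interaction was 1.12 (SE 0.54, unadjusted p = 0.0618, edgeR). In annotated nuclei and marked barcodes of either tissue edgeR called 0 genes of the pathway list by genotype, with 0 to 2 at an unadjusted p under 0.05 in each, and DESeq2 called 0.

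In PF/F barcodes without a type, Flt1 was at 35.9 and 202 CPM in WT and at 86.5 and 171 CPM in Tbx1+/- libraries, and Cldn5 at 62.7 and 196 CPM against 155 and 215 CPM. In the same libraries the share of these barcodes that were marked was 0.426% and 2.94% in WT, and 0.949% and 2.39% in Tbx1+/-. The 12 reference genes were at 111 and 438 CPM, and at 250 and 401 CPM. Both genes were lowest in WT 1, where the marked share and the reference genes were also lowest, and the part of that share was not tested. Without PF/F WT 2, 6 of the 10 genes were called higher in Tbx1+/-, from 1.30 for Cdh5 to 1.99 for Kdr (edgeR), among 78 of 17902 genes, all higher, while without WT 1 none of the 10 was called among 28 of 17539 genes.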

How the data were processed

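Nuclei of 8 libraries were used. The deposited values are whole UMI counts for each gene in each barcode, and the authors obtained them from Cell Ranger 7.0.0 with intron mode and mm10. Barcodes that the authors later dropped are included, and free RNA, which they corrected with SoupX, is still in the counts. The authors' annotation gave the cell types, and the levels of some of these types are not reported here. Doublets were not removed, and as an alternative the 8% of nuclei richest in UMIs were left out of each library. Positions came from GENCODE vM21, and promoter windows from RefSeq. The 10 genes, the lists and the reference genes were chosen with earlier results of these data known. Named genes are the 10 and, from the pathway list, those that passed the tissue test and Slco1a4, which did not. The 3 genes most like each of the 10 over the types are also named. Since the pathway list was chosen with earlier results known, its counts beside those of all genes are a description.

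UMIs were summed per library over each type, over barcodes without a type, and over marked barcodes. Sums were compared by the quasi-likelihood test of edgeR 4.0.16 in R 4.3.3, after filterByExpr and with TMM factors, with Benjamini-Hochberg adjustment over all genes tested and thresholds of an adjusted p under 0.05 and a change above 1.5-fold. The SE was taken from the log2 change and the F statistic. Tissues were compared over 4 and 4 libraries and genotypes over 2 and 2, where an exact two-sided permutation test cannot give a p below 0.33. Both tissues were dissected from mice of the same age, and the labels do not say whether PTB and PF/F libraries share mice. The main tissue test took the libraries as independent. Intervals and limits at 0 counts would cover counting error only, and none is given. Tests were run on simulated data. The other settings were the Wald test of DESeq2 1.42.0, RLE factors, all genes without a filter, scaling to the reference genes, other limits for marking, marked barcodes without the 8% richest in UMIs (added after seeing the data), the replicate block and each library left out in turn. A lone library of a group is then assumed to vary like the other group.

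The study's methods describe a second set of animals, and the replicate number was taken to stand for the set. This pairs a WT with a Tbx1+/- library, which the labels do not state. Deviations from the genotype means, compared within a pair, correlated across genes at 0.478 in annotated PTB nuclei, 0.550 in annotated PF/F nuclei, 0.241 in marked PTB barcodes and 0.109 in marked PF/F barcodes. Genes are not independent replicates.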

Additional observations from a re-analysis of the deposited data

How the results depend on the processing

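Of the settings of the counts of calls, 160 stayed within 1.5 times of the reported count and 13, all of comparisons by genotype, did not. In marked PTB barcodes, 94 genes, 1 of the 10 among them (Cldn5), were called by genotype with no filter on low counts, 1 gene with DESeq2 (Cntn5, chosen after its values were seen), and 0 to 22 genes with 0 to 1 of the 10 when a library was left out. In PF/F barcodes without a type, leaving out a library gave 0 to 78 genes and 0 to 6 of the 10, with 28 genes without WT 1. In marked PF/F barcodes 4 genes were called with no filter, 5 with the replicate block and 0 to 10 when a library was left out, none of the 10 in any. The replicate block changed no other call on the 10 genes. In the annotated types, 0 to 1 tests passed when a library was left out (Cldn5 in astroglia without PF/F WT 2, at 1.19).

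The number of the 10 genes that differed between tissues ranged from 5 to 7, not always the same genes, and the number of all genes from 3634 to 6341. Scaled to the reference genes, 23.2% of the calls were higher in the PF/F, against 52.0%. Cdh5 changed sign at -0.00044 with no filter, at -0.28 scaled to the reference genes and at -0.51 without the 8% of barcodes with the most UMIs, and in none was it called. In that last setting, added after seeing the data, Flt1 (0.37) and Kdr (0.48) were no longer called, and Flt4 (-1.05) and Pecam1 (-1.10) were. Pecam1 passed under RLE factors, no filter, DESeq2 and 3 of the settings that left out a library. Without the 8% of nuclei with the most UMIs, levels by type stayed within 1 SD for 283 of 310. Depth limits Vegfd, Vegfa in PF/F vessels and every value of PF/F WT 1. The causes were not tested.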

Other observations

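Each gene was also set beside all 13854 genes that reached 20 CPM in a type, by the Pearson correlation of log levels over the 31 annotated types. The types share libraries and free RNA, and only 1 is endothelial, so this is a description. Flt1 was most like Pcdh12 (r = 0.905), an endothelial protocadherin, then Acvrl1 and Slfn5. Kdr was most like Tie1 (r = 0.899), an endothelial receptor, then Clec14a and Pcdh12. Flt4 was most like Mmrn1 (r = 0.888), then Ccm2l and Eogt, and Tek most like Ppp1r2 (r = 0.821), then Flt1 (r = 0.814) and Adgrl4. Cldn5 was most like Slc7a5 and Bsg (both r = 0.955), a transporter and a glycoprotein of brain vessels, then Slc38a5. Cdh5 was most like Hspa12b (r = 0.912), then Srgn and Agpat2, and Pecam1 most like Egfl7 (r = 0.911), then Adgrl4 and Cd93. Among the ligands, Vegfa was most like Ccs (r = 0.870), then Ankrd16 and Eya1, and Vegfd most like Msx1 (r = 0.833), then Clec3b and Olfr1033. Vegfc had the lowest leading value, with Mxi1 (r = 0.684), then Dach2 and Ror1.

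The 133 marked PF/F barcodes without a type held 12065 UMIs each on average, against 3703 in annotated endothelial nuclei and 3231 in unmarked barcodes without a type. Their Cldn5 level was 2760 ± 765 CPM (SD, n = 4), against 1671 ± 489 CPM in the annotated endothelial nuclei, and they gave 3945 of the 5011 Cldn5 UMIs of marked PF/F barcodes.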
